A study of Homo sapiens with 6 samples.

Results

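The genes described here encode 9 kinases that DCC-2036 is reported or known to reach besides the SRC family: ABL1, ABL2, TEK (also called TIE2), KDR (a VEGF receptor), FLT3, MET, and the TAM receptors AXL, MERTK and TYRO3. They were chosen by name as drug targets, from the 19223 gene symbols of a table of RefSeq protein-coding transcripts, in which they hold 25 of 45006 transcripts. DCC-2036 (rebastinib) is a tyrosine kinase inhibitor. LoVo, an established human cell line derived from colorectal adenocarcinoma, was kept in 6-well plates with vehicle (Control) or with 2.5 µM DCC-2036, and RNA was sequenced in 3 libraries of each group. Both groups were labelled with a time of 48 h. A shorter time stands in the legend to the RNA data in the paper, and the labels were followed here. All values come from 1 cell line at 1 dose and 1 time, and nothing in the labels says that the 3 libraries of a group came from separate passages, so the p-values measure the spread between these libraries.

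Receptor tyrosine kinases are membrane proteins whose ligand-bound receptors phosphorylate one another and then recruit adaptors inside the cell. MET is the receptor of hepatocyte growth factor and drives the scattering and growth of epithelial cells. The TAM receptors bind GAS6 and protein S, and are known for the clearance of dying cells and, in the case of AXL, for invasive growth and drug resistance in tumors. ABL1 and ABL2 are cytoplasmic kinases that act on the actin cytoskeleton. TEK and KDR are receptors of blood vessels for angiopoietins and VEGF, and FLT3 is a receptor of early blood cells. A kinase inhibitor acts on the protein, and the data here are RNA levels of the genes, not kinase activity.

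The deposited values were signals adjusted to a common depth, so the number of reads per library is unknown. Each of the 3 DCC-2036 libraries had 5697 transcripts at 0, against 7844, 7940 and 8078 in Control. Values such as 0.01 stood in DCC-2036 libraries where another had more (KDR 1.03, 0.01 and 0.01). How the treated values were made was not tested, and the p-values rest on their spread as deposited. Column totals ran from 38997229 to 40587145 in Control and from 43279603 to 48023306 with DCC-2036. The highest was that of DCC-2036 replicate 3, which also lay apart from the other DCC-2036 libraries in several of the genes below. Of the 10 colorectal epithelium markers, EPCAM, CDH1, KRT8, KRT18, KRT19 and CDX2 were abundant, while CDX1 was at 0 in all 6 libraries and VIL1 and CEACAM5 were at or below 4.12. The summed signal of this list was 104500 to 115000 in Control and 148300 to 188400 with DCC-2036, with CDH1 and KRT8 called higher and KRT20 lower among 7 tested, and the part of this in the results was not tested. In the 6 fits without 1 library, CDH1 was called in all 6. KRT8 was called in 2 of them and KRT20 in 4 (adjusted p of up to 0.0154 and 0.0182, limma). PECAM1, CDH5 and CLDN5, which define endothelium, were at or below 5.38, and PTPRC, which defines blood cells, was at 0 in every library. Summed over the markers, the endothelium list ranged from 910.9 to 1066 in Control and from 1100 to 1528 in DCC-2036, most of it from EGFL7, and 0 of its 3 tested genes were called. The blood cell list summed to 229.2 to 274.3 and 223.1 to 311.8, nearly all of it CD68, and the fibroblast list to 369.6 to 442.8 and 454.1 to 553.9, most of it COL1A1. None of their 1 and 2 tested genes was called.

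Of the 9 genes, 6 passed the filter on low values (10 or more in 3 or more libraries). With DCC-2036, AXL and TYRO3 fell to about the same extent, to 55.2% and 53.0% of Control, and the other 4 tested genes, MET, ABL1, ABL2 and MERTK, did not pass the limit of an adjusted p under 0.01 (limma on log2(value + 1), Benjamini-Hochberg adjustment over all genes tested). So 2 of 6 were lower and 0 were higher, where 22.7% of all 12725 tested genes were lower and 19.2% were higher, and 41.9% were called in either direction. At an unadjusted p under 0.05 (limma), 1 of the 6 was higher and 3 were lower, where 30.5% of all tested genes were higher and 36.1% were lower. The 3 values of each group did not overlap in 4 of the 6 genes, against 71.1% of all tested genes. The median log2 fold change of the 6 genes was -0.11, against -0.09 over all tested genes. With 6 genes, these counts lie near the background of all tested genes.

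**Figure D1:**
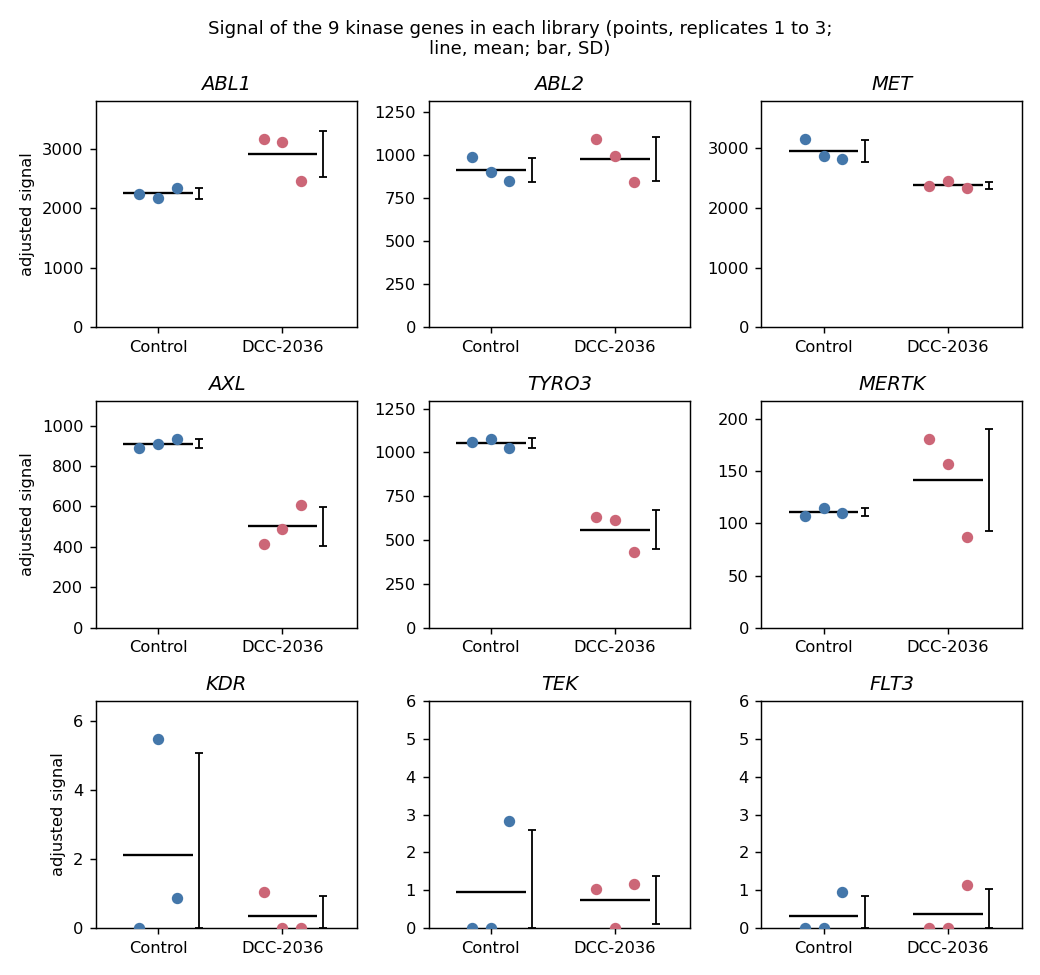
Adjusted signal (vertical axis, starting at 0, own scale in each panel) of the 9 kinase genes in the 3 Control and 3 DCC-2036 libraries, as points in the order of replicates 1 to 3 with the mean as a line and the SD as a bar, cut off at 0. AXL and TYRO3 lay lower in all 3 treated libraries than in each Control library, and KDR, TEK and FLT3 stayed at or below 5.48 throughout.

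Levels between genes were set side by side as signal per kilobase of transcript in GENCODE 29. In Control, MET was the highest with 634.7 ± 39.7 (SD, n = 3), next to ABL1 with 588.7 ± 23.7. AXL followed with 192.3 ± 4.77, TYRO3 with 128.3 ± 3.33, ABL2 with 75.1 ± 5.86 and MERTK with 30.8 ± 1.11. The ranges of MET and ABL1 over the 3 Control libraries overlapped, and those of the other neighbours in this order did not. Per kilobase of coding sequence, TYRO3 (394.4) stood above AXL (339.7) and ABL2 reached 257.2, so the order of AXL and TYRO3 and the level of ABL2 depend on how their untranslated ends are counted. The 12144 bases of the ABL2 transcript used here hold 3546 coding bases, and ABL2 NM_005158.4, with 3635 bases in all, had 248.8 per kilobase of transcript, above AXL and TYRO3. MET NM_000245.3, with 6635 bases in all, had 442.8 per kilobase of transcript, below ABL1. Per kilobase of coding sequence MET (696) stood above ABL1 (653), so their order also depends on the transcript and length used. KDR, TEK and FLT3 were at or below 0.35 per kilobase. With DCC-2036, ABL1 reached 761.5 ± 102 per kilobase of transcript and stood above MET with 511.9 ± 12.8. The other ABL1 transcript, NM_005157.5, had 475.2, below MET. Per kilobase of coding sequence, both ABL1 transcripts (844.8 and 808.3) stood above MET (561.3).

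AXL is the TAM receptor most often tied to tumor invasion. It lies at chr19:41219203-41261766 on the forward strand of GRCh38 and overlaps an antisense gene, AC011510.1. The library kit did not keep strand, so reads from where the genes overlap cannot be told apart. The signal of AXL was 890.4, 907.9 and 935.1 in Control, against 413.9, 488.2 and 605.5 with DCC-2036 (NM_021913.4). All 3 treated values were below every Control value, with a mean of 911.1 ± 22.6 (SD, n = 3) in Control and 502.5 ± 96.6 in DCC-2036. The log2 fold change was -0.87 (SE 0.15, 95% interval -1.24 to -0.51, adjusted p = 0.00354, limma). The RNA of AXL fell, but the call was lost in 4 of the 6 fits without 1 library: without Control replicate 1, 2 or 3 the adjusted p was 0.0157, 0.0169 or 0.0178 (limma). The fit that left out DCC-2036 replicate 2 gave 0.0169, and those that left out DCC-2036 replicate 1 or 3 kept the call (0.00391 and 0.000948). These fits also differed over all tested genes. In the 4 that lost the call, 1571, 1502, 1534 and 1650 genes were lower, against 2887 with all libraries. In the 2 that kept it, 3444 and 3198 were lower. The log2 fold change of AXL stayed between -1.02 and -0.74 over the 6 fits without 1 library.

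TYRO3, a TAM receptor best known from the nervous system, lies at chr15:41557675-41583586 on the forward strand of GRCh38 and has a processed pseudogene, TYRO3P, at chr15:76258986-76261690, to which some reads may belong. Its signal was 1058, 1077 and 1023 in Control, against 630.4, 613.5 and 431.2 with DCC-2036 (NM_006293.3). The groups did not overlap, with means of 1053 ± 27.3 (SD, n = 3) and 558.4 ± 110. The log2 fold change was -0.93 (SE 0.17, 95% interval -1.33 to -0.54, adjusted p = 0.00362, limma). TYRO3 fell as AXL did, and lost the call in the same fits, in which fewer of all tested genes were called as well. Its adjusted p was 0.0171, 0.0177 and 0.0159 without Control replicates 1, 2 and 3 and 0.011 without DCC-2036 replicate 2 (limma). The call was kept without DCC-2036 replicate 1 or 3. Over all 6 fits without 1 library, its log2 fold change lay between -1.03 and -0.76.

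MERTK, the TAM receptor of phagocytes and retinal epithelium, was the lowest of the expressed kinases and did not follow the other TAM receptors. It lies at chr2:111898479-112029561 on the forward strand. Its signal was 107.2, 115.1 and 110.4 in Control, against 181.3, 156.8 and 86.7 with DCC-2036 (NM_006343.2). Replicates 1 and 2 with DCC-2036 were above Control and DCC-2036 replicate 3 was below it, so the groups overlapped. The log2 fold change of 0.28 was not called (SE 0.27, 95% interval -0.37 to 0.93, adjusted p = 0.385, limma). Leaving out DCC-2036 replicate 3 gave 0.60 (adjusted p = 0.00443, limma), so this library decides whether MERTK counts as higher.

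Ratios within a library do not depend on how libraries are scaled, and 5 pairs of the kinase genes were compared in this way. The log2 ratio of AXL to TYRO3 was -0.25, -0.25 and -0.13 in Control, against -0.61, -0.33 and 0.49 with DCC-2036. The means differed by 0.06, which was less than the spread between the DCC-2036 libraries (SD 0.57, exact permutation p = 1, two-sided). Its sign rested on DCC-2036 replicate 3, without which the difference was -0.26, and without DCC-2036 replicate 1 it was 0.29. Among the DCC-2036 libraries, AXL was highest and TYRO3 lowest in replicate 3. The log2 ratio of MERTK to TYRO3 differed by 1.22, from -3.24 ± 0.05 (SD, n = 3) to -2.02 ± 0.26, and that of AXL to MERTK differed by -1.16 (from 3.03 ± 0.05 to 1.87 ± 0.83). In both, the groups did not overlap, and the exact permutation test gave p = 0.1, the smallest it can give with 3 libraries against 3 (0.125 after Benjamini-Hochberg adjustment over the 5 ratios).

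The promoters of the 2 genes that fell, from 250 bases before to 50 bases after the start in RefSeq on GRCh38.p14, are printed so that their base composition can be seen. Capitals mark matches on either strand to GGGCGG, the core of a GC box, and to TGANTCA. The latter takes any base at N and is looser than the AP-1 motif, which has C or G there.
AXL, chr19:41218973-41219272, forward strand: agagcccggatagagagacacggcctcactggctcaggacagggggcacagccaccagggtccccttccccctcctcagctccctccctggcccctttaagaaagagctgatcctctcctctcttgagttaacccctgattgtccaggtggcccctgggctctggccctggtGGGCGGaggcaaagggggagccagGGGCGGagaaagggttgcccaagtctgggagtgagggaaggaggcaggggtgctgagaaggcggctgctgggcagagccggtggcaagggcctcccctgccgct
TYRO3, chr15:41558962-41559261, forward strand: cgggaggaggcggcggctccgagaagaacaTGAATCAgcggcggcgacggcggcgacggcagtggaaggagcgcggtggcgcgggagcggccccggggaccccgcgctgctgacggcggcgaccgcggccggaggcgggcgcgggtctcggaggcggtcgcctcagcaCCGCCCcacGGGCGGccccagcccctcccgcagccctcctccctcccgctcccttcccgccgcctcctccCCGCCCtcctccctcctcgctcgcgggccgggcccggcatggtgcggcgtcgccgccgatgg
The window of AXL held 2 matches to GGGCGG and 0 to TGANTCA, and that of TYRO3 held 3 and 1. This 1 match reads TGAATCA, with A at N, and so is not the AP-1 motif itself. Each gene has another RefSeq start, whose window held 0 matches to either motif. Of all 35116 promoter windows of this length, 45% held GGGCGG and 7.71% held TGANTCA. Among the kinase genes that were not called, the window of MERTK held 5 matches to GGGCGG and that of MET held 3. The RefSeq start used for TYRO3 lies downstream of the first base of its GENCODE gene given above. The windows listed for ABL1 and ABL2 lie at starts well inside those genes and are not described.

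MET, the receptor of hepatocyte growth factor, had the highest signal of the kinases in Control before transcript length was counted. Per kilobase, its range overlapped that of ABL1. It lies at chr7:116672390-116798386 on the forward strand of GRCh38. Its signal was 3151, 2857 and 2811 in Control, against 2359, 2435 and 2319 with DCC-2036 (NM_001127500.2), with means of 2940 ± 184 (SD, n = 3) and 2371 ± 59.1. All treated values lay below Control, at 80.7% of its mean, but a log2 fold change of -0.31 missed the limit of 0.01 (SE 0.10, 95% interval -0.54 to -0.07, adjusted p = 0.0318, limma). With the libraries scaled to equal totals it was -0.50 (adjusted p = 0.00895, limma), a scaling that moves the median of all tested genes to -0.28. The log2 ratio of MET to AXL within a library went from 1.69 ± 0.12 (SD, n = 3) to 2.25 ± 0.29 without overlap (exact permutation p = 0.1, the smallest possible).

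ABL1, the kinase against which DCC-2036 was designed, lies at chr9:130713946-130887675 on the forward strand. Its signal was 2244, 2163 and 2344 in Control, against 3168, 3104 and 2464 with DCC-2036 (NM_007313.2), with means of 2251 ± 90.6 (SD, n = 3) and 2912 ± 389. The groups did not overlap and DCC-2036 replicate 3 lay nearest to Control. The log2 fold change of 0.36 was not called (SE 0.13, 95% interval 0.05 to 0.67, adjusted p = 0.0467, limma), and leaving out DCC-2036 replicate 3 gave 0.48 (adjusted p = 0.00577, limma). With median-of-ratios and upper-quartile scaling it was 0.44 and 0.38, and with libraries scaled to equal totals it was 0.17 (adjusted p = 0.357, limma).

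ABL2, also called ARG, lies at chr1:179099327-179229684 on the reverse strand. Its most abundant transcript, NM_007314.3, had 988.3, 899.9 and 847.5 in Control, against 1094, 993.5 and 842.6 with DCC-2036. The groups overlapped, with means of 911.9 ± 71.2 (SD, n = 3) and 976.7 ± 127 and a log2 fold change of 0.09 (SE 0.13, 95% interval -0.23 to 0.41, adjusted p = 0.56, limma). It was -0.10 with equal totals, so its sign depends on the scaling. Without DCC-2036 replicate 1 the log2 fold change was 0.0076, and without DCC-2036 replicate 3 it was 0.20. The log2 ratio of ABL1 to ABL2 in a library was 1.31 ± 0.15 (SD, n = 3) in Control and 1.57 ± 0.06 in DCC-2036, without overlap (exact permutation p = 0.1, the smallest possible).

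TEK, KDR and FLT3, the receptors of vessel and blood cells, were near 0 in these epithelial cells. TEK was at 0, 0 and 2.84 in Control, against 1.04, 0.01 and 1.16 with DCC-2036, the same in its 3 transcripts. KDR had 0, 5.48 and 0.87 in Control, against 1.03, 0.01 and 0.01 with DCC-2036. FLT3 had 0, 0 and 0.94 in Control, against 0, 0.01 and 1.13 with DCC-2036. None of the 3 reached the filter, each had overlapping groups, and no fold is given, since a difference was not detectable at such values. KDR, at chr4:55078259-55125595 on the reverse strand, also overlaps an antisense gene, AC111194.2. TEK lies at chr9:27109141-27230175 on the forward strand and FLT3 at chr13:28003274-28100592 on the reverse strand.

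Besides the most abundant transcript of each gene, 14 others of the kinase genes were tested in a fit of all 32323 transcripts. Among them 1 rose (of ABL2) and 4 fell (2 of AXL, 1 of TYRO3 and 1 of MET), where 19.7% of all tested transcripts were higher and 22.4% lower at an adjusted p under 0.01 (limma). Transcripts of 1 gene share most of their exons and hence their reads, so they are not independent measurements. The transcripts that part from their gene, in MET and ABL2, are shown first by the sequence at which they differ, read from GENCODE 29 transcripts on GRCh38. In MET, capitals mark the bases of the longer form of an exon (chr7:116759337-116759390) and the last coding bases of the transcript that ends early (exon at chr7:116763050-116763080, stop codon included there but not printed).
MET NM_001127500.2, longer exon: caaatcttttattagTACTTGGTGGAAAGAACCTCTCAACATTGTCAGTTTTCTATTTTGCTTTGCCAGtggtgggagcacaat
MET NM_000245.3, shorter exon: caaatcttttattagtggtgggagcacaat
MET NM_001324401.1, early end: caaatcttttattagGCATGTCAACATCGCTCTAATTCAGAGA

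MET NM_001324401.1 has 9 exons and 764 codons, against 21 exons and 1408 codons of NM_001127500.2. It ends before the last 42.0% of the coding bases, which include the parts for the transmembrane segment and the kinase. All of its 2295 bases lie within exons of NM_001127500.2, so apart from exon joins its reads cannot be told apart from those of the 5′ part of the longer transcripts, and its signal rests on how shared reads were counted. Its signal was 1241, 1180 and 1159 in Control, against 1471, 1604 and 1672 with DCC-2036, so every treated value was above Control while the longer transcripts were below it. Its log2 fold change of 0.41 was not called (SE 0.10, adjusted p = 0.0122, limma). Leaving out DCC-2036 replicate 1 gave 0.46 (adjusted p = 0.00828, limma), and with median-of-ratios scaling it was 0.49 (adjusted p = 0.00863, limma). With libraries scaled to equal totals it was 0.22 (adjusted p = 0.0762, limma), and the fits without Control replicate 2 or 3 gave adjusted p-values of 0.0528 and 0.0506. Relative to NM_001127500.2 in the same library, its log2 ratio was -1.34, -1.28 and -1.28 in Control, against -0.68, -0.60 and -0.47 with DCC-2036, a difference of 0.71 without overlap (exact permutation p = 0.1, the smallest possible, and 0.233 adjusted over the 14 transcript ratios).

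MET NM_001324402.1 had 2595, 2348 and 2273 in Control, against 1599, 1679 and 1383 with DCC-2036. It fell by 0.63 on the log2 scale (SE 0.12, adjusted p = 0.00428, limma). Its log2 ratio to NM_001127500.2 in the same library went, without overlap, from -0.29 ± 0.01 (SD, n = 3) to -0.61 ± 0.11. Left without Control replicate 1, 2 or 3 or DCC-2036 replicate 2, its adjusted p was 0.0209, 0.0193, 0.0156 or 0.0129. GENCODE 29 ties this RefSeq entry to the same model as NM_000245.3, so its own structure was not resolved here. NM_000245.3, which lacks the 54 bases in capitals, had nearly the same values as NM_001127500.2 (log2 fold change -0.31, adjusted p = 0.0303, limma).

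ABL2 NM_001136001.1 differs from the other ABL2 transcripts at its end. Capitals mark the bases after the shared exon, in its own last exon (chr1:179110581-179110845, reverse strand) and in the next exon of the long form.
ABL2 NM_001136001.1, early end: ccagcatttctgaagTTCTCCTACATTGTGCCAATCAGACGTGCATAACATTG
ABL2 NM_007314.3, long form: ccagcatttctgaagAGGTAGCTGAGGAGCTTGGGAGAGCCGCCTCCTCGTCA

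This ABL2 transcript has 542 codons, against 1182 in NM_007314.3, and ends before the last 53.4% of the coding bases, the part for the C-terminal region with which ABL2 binds actin. Its signal was 116.7, 100.8 and 104.9 in Control, against 228.2, 239.3 and 291.5 with DCC-2036. All treated values were far above Control, with means of 107.5 ± 8.23 (SD, n = 3) and 253.0 ± 33.8. It rose by a log2 fold change of 1.22 (SE 0.13, 95% interval 0.91 to 1.54, adjusted p = 0.000674, limma), and its adjusted p was at most 0.00546 in the 6 fits without 1 library. The other 7 ABL2 transcripts, NM_007314.3 among them, had log2 fold changes between 0.09 and 0.13 and were not called. The log2 ratio of the early-ending transcript to NM_007314.3 was -3.07, -3.15 and -3.00 in Control, against -2.26, -2.05 and -1.53 with DCC-2036, higher by 1.13 (exact permutation p = 0.1, the smallest possible). Of its 2140 bases, 83.7% lie within exons of NM_007314.3. Per kilobase of transcript, it had 50.2 in Control, against 118.2 with DCC-2036, and NM_007314.3, which is much longer, had 75.1 and 80.4, so which of them is higher after treatment depends on how length is counted.

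**Figure D2:**
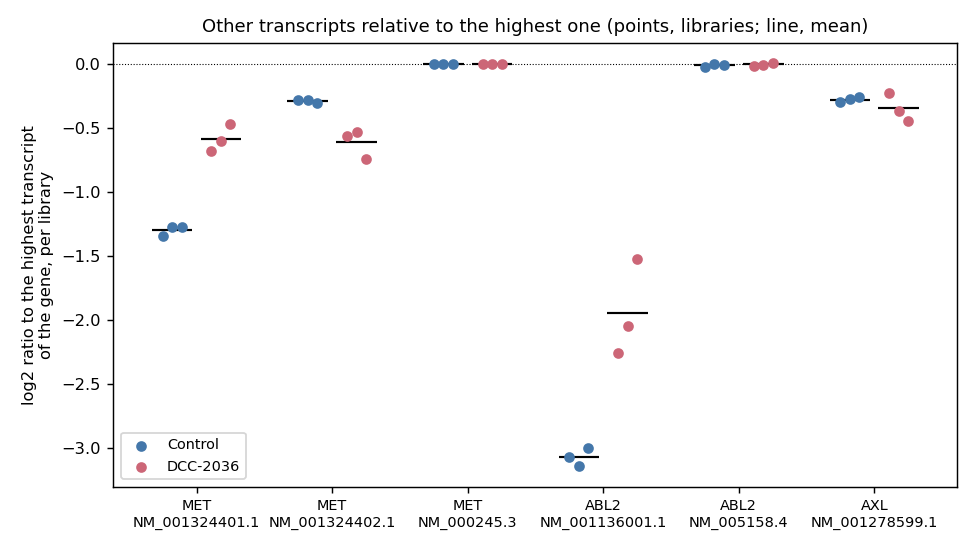
Log2 ratio of 6 other transcripts of MET, ABL2 and AXL to the most abundant transcript of the same gene (vertical axis) in each library, with the mean as a line. The early-ending transcripts, MET NM_001324401.1 and ABL2 NM_001136001.1, were higher in all 3 DCC-2036 libraries than in Control, by 0.71 and 1.13, while MET NM_000245.3 and ABL2 NM_005158.4 stayed near 0.

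Early ends were then compared over all genes, a comparison chosen after these data had been seen. Of the tested transcripts that end before at least 25% of the coding bases of their gene's most abundant transcript, 727 from 511 genes, 82.3% had a higher log2 fold change than that transcript, with a median difference of 0.34 (10th to 90th percentile -0.10 to 1.27). Of 413 transcripts from 239 genes that start late by the same limit, 31.5% were higher (median difference -0.03), and of 13537 with neither end moved, 47.6% were. A difference at least as large as in MET was found in 197 of the 727, and one at least as large as in ABL2 in 91. The shift in MET and ABL2 thus lay within a shift of early-ending transcripts at large, whose source was not tested.

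In AXL, the 2 full-length forms differ by a coding exon of 27 bases at chr19:41239694-41239720, shown in capitals, and GENCODE 29 gives them 894 and 885 codons.
AXL NM_021913.4, with the exon: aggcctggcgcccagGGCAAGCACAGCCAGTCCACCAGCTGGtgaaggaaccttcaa
AXL NM_001699.5, without the exon: aggcctggcgcccagtgaaggaaccttcaa
Both fell alike. NM_001699.5 went from 892.3 ± 26.4 (SD, n = 3) to 491.2 ± 97.6 (log2 fold change -0.88, adjusted p = 0.00369, limma). AXL NM_001278599.1, which starts after 21.8% of the coding bases, had 723.0, 748.9 and 781.5 in Control, against 353.7, 378.9 and 445.1 with DCC-2036. It fell by 0.94 on the log2 scale (SE 0.12, adjusted p = 0.00111, limma), and of the AXL and TYRO3 transcripts it was the one whose adjusted p stayed under 0.01 in all 6 fits without 1 library (at most 0.00789). TYRO3 NM_001330264.1 had a log2 fold change of -0.94 (adjusted p = 0.00326, limma), and ABL1 NM_005157.5 had 0.36 (adjusted p = 0.0487, limma, not called), each close to the other transcript of its gene. NM_001699.5 and NM_001330264.1 lost the call without any 1 of the Control libraries or DCC-2036 replicate 2, with adjusted p-values of up to 0.0185 and 0.0164.

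The ligands and partners of the kinases were described next from lists chosen by function. Of the 79 different genes tested in these 6 lists, 33 were called, near the 41.9% of all tested genes, and 14 of the 33 were called in all 6 fits without 1 library.

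Ligands came first. GAS6, the ligand of all TAM receptors, had 961.8, 966.7 and 1009.7 in Control, against 769.5, 774.9 and 743.6 with DCC-2036, lower without overlap but not called (log2 fold change -0.36, SE 0.09, adjusted p = 0.0138, limma). PROS1, which encodes protein S, went from 166.9 ± 9.92 (SD, n = 3) to 242.5 ± 46.5 and was not called either (log2 fold change 0.52, adjusted p = 0.0244, limma). HGF, the ligand of MET, had 10.56, 0 and 0.83 in Control, against 10.24, 0.07 and 0.13 with DCC-2036, under the filter. FLT3LG, the FLT3 ligand, had 20.6, 32.7 and 30.4 against 35.3, 27.2 and 41.9, with overlap (log2 fold change 0.31, adjusted p = 0.261, limma).

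Among the ligands of KDR and its relatives, VEGFA and VEGFB moved in opposite directions. VEGFA, the main growth factor of blood vessels, had 714.6, 664.6 and 698.6 in Control, against 1251, 1445 and 1495 with DCC-2036. It rose by a log2 fold change of 1.01 (SE 0.11, adjusted p = 0.00073, limma) and was called in all 6 fits without 1 library. VEGFB, which binds the related receptor FLT1, had 396.7, 458.4 and 462.1 in Control, against 259.3, 258.7 and 281.3 with DCC-2036, and fell by 0.72 on the log2 scale (SE 0.11, adjusted p = 0.00214, limma). VEGFB lost the call without Control replicate 2 or 3 or DCC-2036 replicate 2 (adjusted p of up to 0.014). PGF, another FLT1 ligand, had a log2 fold change of -1.14 that was not called (adjusted p = 0.0211, limma).

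Of the TEK ligands, ANGPT2 was the one tested, with 2.62, 14.97 and 24.27 in Control, against 34.3, 35.8 and 53.4 with DCC-2036. The treated values were all higher, but the log2 fold change of 1.87 was not called given its spread (SE 0.69, adjusted p = 0.0527, limma). ANGPT1 was listed at 0 in all 6 libraries, and ANGPT4, VEGFC and VEGFD were at or below 5.71. Of the 14 VEGF and angiopoietin genes in the table, 7 were tested, 1 rose and 1 fell, with a median log2 fold change of -0.26. Over all tested genes 19.2% rose and 22.7% fell. Without DCC-2036 replicate 1 or 3, 3 and 2 of the 7 were lower.

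Of the 16 ABL adaptors and substrates, 14 were tested, 6 rose and 2 fell, where 19.2% of all tested genes rose and 22.7% fell. The median log2 fold change was 0.25 for the list, against -0.09 for all tested genes. The adaptor CRKL, a major ABL substrate, had 2940, 2831 and 2710 in Control, against 5443, 6979 and 8140 with DCC-2036, and rose by a log2 fold change of 1.26 (SE 0.16, adjusted p = 0.00122, limma). NCK1, an adaptor to actin assembly, rose by 1.15 (adjusted p = 0.00138, limma), and ABI1, an ABL interactor of the WAVE complex, by 1.03 (adjusted p = 0.00271, limma). CRK, the close relative of CRKL, went the other way, with 2036, 2063 and 1867 in Control, against 1121, 834.4 and 462.4 with DCC-2036. CRK fell by 1.39 on the log2 scale (SE 0.31, adjusted p = 0.00868, limma). CRKL and NCK1 were called in all 6 fits without 1 library, whereas CRK and ABI1 lost the call without any 1 Control library or without DCC-2036 replicate 2 (adjusted p of up to 0.0326 and 0.0141). The list then had 2 genes higher in each of these 4 fits, and 0 lower without a Control library or 1 without DCC-2036 replicate 2. With equal totals 4 were higher and 3 lower. At an unadjusted p under 0.05 (limma) 7 were higher and 5 lower, where 30.5% and 36.1% of all tested genes were.

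Of the 17 genes around MET, 14 were tested, 4 rose and 2 fell, where 19.2% of all tested genes rose and 22.7% fell. The median log2 fold change of the list was 0.01. GRB2, the adaptor that links receptors to RAS, had 5129, 5392 and 5682 in Control, against 11217, 14023 and 17054 with DCC-2036, and rose by a log2 fold change of 1.36 (SE 0.17, adjusted p = 0.00102, limma). LRIG1, a membrane protein that promotes the degradation of receptors, rose from 52.8 ± 14.4 (SD, n = 3) to 146.8 ± 14.3 (log2 fold change 1.49, adjusted p = 0.00146, limma). MST1R, or RON, the nearest relative of MET, had 1117, 1019 and 1165 in Control, against 230.4, 258.9 and 386.9 with DCC-2036. MST1R fell by 1.95 on the log2 scale to 26.5% of Control (SE 0.20, adjusted p = 0.000646, limma). PLXNB1, a semaphorin receptor that associates with MET, fell by 0.87 (adjusted p = 0.00228, limma). PLXNB1 lost the call without any 1 Control library or DCC-2036 replicate 2 (adjusted p of up to 0.0128), while GRB2, LRIG1 and MST1R were called in all 6 fits. The list then had 2 genes higher and 1 lower, and with equal totals 2 were higher and 3 lower.

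Of the 12 TAM ligands, sheddases and partners, 10 were tested, 2 rose and 2 fell, where 19.2% of all tested genes rose and 22.7% fell. The median log2 fold change of the list was -0.25. ADAM17, a protease that sheds membrane receptors, MERTK among them, had 882.0, 829.7 and 817.2 in Control, against 1587, 1754 and 2045 with DCC-2036, and rose by a log2 fold change of 1.08 (SE 0.12, adjusted p = 0.000848, limma). LGALS3, a galectin reported as a MERTK ligand, rose by 0.95 (adjusted p = 0.00224, limma). TNS2, a focal adhesion protein that binds AXL, had 269.1, 228.2 and 225.4 in Control, against 98.5, 80.2 and 92.6 with DCC-2036, and fell by 1.40 on the log2 scale (SE 0.13, adjusted p = 0.000447, limma). SOCS3, a brake on cytokine signalling, fell by 0.50 (adjusted p = 0.00748, limma). LGALS3 lost the call without Control replicate 1 or 2 or DCC-2036 replicate 2 (adjusted p of up to 0.0114), and SOCS3 in every fit but that without DCC-2036 replicate 3 (up to 0.0352). With median-of-ratios or upper-quartile scaling, 1 of the list was lower.

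Of the 12 genes of FLT3LG and the class III receptors with their ligands, 6 were tested, 3 rose and 0 fell at either the adjusted limit or an unadjusted p under 0.05 (limma). Over all tested genes 19.2% rose and 22.7% fell at the adjusted limit, and 30.5% and 36.1% at the unadjusted one. The 3 genes of the list that rose are ligands of other receptors. KITLG, the KIT ligand, had 15203, 15248 and 13555 in Control, against 21329, 25929 and 32816 with DCC-2036 (log2 fold change 0.84, SE 0.17, adjusted p = 0.00626, limma). PDGFC rose by 1.13 (adjusted p = 0.00157, limma) and PDGFB by 0.54 (adjusted p = 0.00812, limma). The receptor KIT itself was at or below 1.03. PDGFC was called in all 6 fits without 1 library, KITLG lost the call without any 1 Control library or DCC-2036 replicate 2 (up to 0.0282), and PDGFB was called in 1 of the 6 (up to 0.0398). With equal totals, 1 of the list was higher.

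Set beside the kinase genes, 29 of 50 other receptor tyrosine kinases were tested, 4 rose and 7 fell, with a median log2 fold change of -0.24. Over all tested genes 19.2% rose and 22.7% fell, with a median of -0.09. After MST1R, which is also among the genes around MET, the largest changes in this list were in EPHB2, ERBB3 and LMTK3. EPHB2, an ephrin receptor of intestinal crypts, went from 501.3 ± 29.3 (SD, n = 3) to 156.8 ± 45.0 (log2 fold change -1.71, adjusted p = 0.001, limma). ERBB3, a kinase-impaired partner of ERBB2, had 532.3, 453.7 and 509.0 in Control, against 186.6, 166.7 and 156.2 with DCC-2036, a log2 fold change of -1.55 (SE 0.12, adjusted p = 0.000287, limma). LMTK3 had a log2 fold change of -1.37 (adjusted p = 0.000706, limma). All 4 were called in the 6 fits without 1 library, and the falls of AXL and TYRO3 were smaller in value. Without Control replicate 2 or 3 or DCC-2036 replicate 2, 1 of the 29 was higher, and with equal totals 2 were.

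The tested genes with the profile nearest to a kinase gene were found by the Euclidean distance of centred log2(value + 1) over the 6 libraries, a description without a test. Nearest to AXL were FLOT1 (distance 0.07), PYGO2 (0.09) and C9orf69 (0.11), and nearest to TYRO3 were CWF19L1 (0.08), MKNK1 (0.11) and GJA3 (0.12). For MET they were PPP1R16A, GBE1 and ORAOV1, and for ABL1 they were UPF1, NCOA3 and IMMT. MERTK had no neighbour nearer than FURIN (0.18), followed by UNC5B and TNS3. By its log2 fold change, TYRO3 ranked 2542 and AXL 2751 from the lowest of the 12725 tested genes, so many RNAs fell further. In bulk RNA, fewer cells with a transcript and less of it per cell cannot be told apart.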

How the data were processed

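RNA-seq of 6 LoVo libraries, 3 Control and 3 DCC-2036, was grouped by sample titles. RNA was isolated with Trizol and libraries were made with the Nextera XT kit, which does not keep strand. The authors deposited 1 signal per RefSeq transcript and library, adjusted to a common depth. The aligner, counter, build and annotation are not given in the sources used here. The signals are not whole and reads were not recovered, so depth is unknown. The deposited fold change columns (log2), p-value and q-value columns of the authors' own comparison were not used.

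Per symbol, the transcript whose mean over the 6 libraries was highest was kept. Signals were tested as log2(value + 1) with limma 3.58.1 in R 4.3.3, two-sided, without covariates, for genes with at least 10 in at least 3 libraries, and called at an adjusted p under 0.01. This scale understates changes of low genes. Ratios within libraries used an exact permutation test. The code was tested on simulated data. Of the 25 transcripts, 24 matched GENCODE 29, whose untranslated ends may differ from those of RefSeq, and all 9 genes matched a RefSeq promoter. Scripts used Python 3.11.15, numpy 2.4.6, pandas 2.3.3 and matplotlib 3.10.9.

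Named were the kinase genes, their ligands, up to 4 called genes per list with the largest changes, and the 3 nearest profiles per tested kinase gene, of which those of ABL2 are not reported here. Members and lists were chosen with earlier results of these data known. Alternatives were 3 scalings, other filters, a pseudocount of 0.1, limma with a trend, a replicate block, each library left out, other limits and other choices of transcript. The comparison of transcript ends was added after seeing the data.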

Additional observations from a re-analysis of the deposited data

How the results depend on the processing

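The 6 fits without 1 library gave 929 to 2717 genes higher and 1502 to 3444 lower, against 2442 and 2887 with all libraries. Without DCC-2036 replicate 1 or 3, 2717 and 2501 genes were higher and 3444 and 3198 lower. The other fits gave 929 to 968 higher and 1502 to 1650 lower. Of the kinase genes, 0 to 2 were higher (2 without DCC-2036 replicate 3, namely ABL1 and MERTK) and 0 to 2 lower (0 without any 1 Control library or DCC-2036 replicate 2). Their log2 fold changes ranged from 0.30 to 0.48 for ABL1, from -1.02 to -0.74 for AXL, from 0.073 to 0.60 for MERTK and from -1.03 to -0.76 for TYRO3. For ABL2 the range was 0.0076 to 0.20. With the replicate block, 1202 genes were higher and 1909 lower, 0 kinase genes were lower, and AXL (-0.87, adjusted p = 0.0102) and TYRO3 (-0.93, adjusted p = 0.0101) lay just past the limit (limma). Same-numbered libraries did not deviate together (r = 0.08, -0.04 and -0.003 across genes), so the numbers were not taken as pairs. With calls limited to absolute log2 fold changes of at least 1, 944 genes were higher, and 0 kinase genes were lower (AXL -0.87, TYRO3 -0.93). At an adjusted p under 0.05, ABL1 (0.36) was called higher, which made 1 of the kinase genes, and MET (-0.31) lower. With all transcripts as rows, 6379 were higher and 7250 lower. With equal library totals, 1716 genes rose and 3388 fell, the median of all genes moved from -0.09 to -0.28, MET was called (-0.50), and ABL2 turned to -0.10, as did its transcripts NM_001136000.2 (-0.058), NM_001168236.1 (-0.10), NM_001168237.1 (-0.065), NM_001168238.1 (-0.069), NM_001168239.1 (-0.065) and NM_005158.4 (-0.089). The causes were not tested, and each fit without 1 library holds fewer samples. The signs of AXL, TYRO3, MET and ABL1 held under every alternative run. Unknown depth and 3 libraries per group limit what can be said of MERTK, and TEK, KDR and FLT3 were too low to compare.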
